A study of Mus musculus with 12 samples.

Results

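Each heavy chain variable region of these mouse myelomas carries a joint made from a V, a D and a J gene. The genes described here are IGHD1-1 and IGHD2-4 among the D segments and IGHJ1, IGHJ2 and IGHJ4 among the J segments. They were chosen by the first D and J hits of the deposited heavy chain clone tables, so their clone counts describe that choice and were not tested. These 5 genes are 5 of the 6 different D and J genes that stand first in any heavy clonotype, and the remaining gene is IGHD2-8. All 16 clonotype entries of the 6 heavy chain libraries use at least 1 of them, and 15 use a member at both D and J. After identical sequences of different libraries are merged, 13 distinct clonotypes remain.

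The labels describe every sample as CD138+B220- multiple myeloma cells of bone marrow from the VQ model. All groups share the genotype Vκ*MYC; NrasLSL Q61R/+; IgG1-Cre, in which a Vκ-driven MYC transgene is combined with an NRAS allele that carries the Q61R change and that Cre, expressed from the IgG1 locus of activated B cells, switches on. The labels give 4 primary donor lines, VQ-D1 and VQ-D2 together with VQ-D4 and VQ-D5, all labelled as primary cells. The remaining samples are labelled as cell lines, 4935 and 4938, derived from recipient mice of VQ-D2, and culture conditions are not given in the labels. Age, agent and time are not given in the labels. The series holds 12 samples, and the 6 heavy chain libraries are used here, 1 for each line. With no replicate library, intervals below are Clopper-Pearson exact 95% intervals for counting error alone, and a count of 0 is given 3 counts of the total as its limit. Immunoglobulin transcripts alone were read, so markers of other cell types were not measured. Clone counts summed to between 373 and 4602 in a library and to 11412 in all, and sequences aligned with a junction numbered between 12 in 4935 and 6124 in VQ-D5.

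In V(D)J recombination the RAG recombinase first joins a D to a J gene and then a V gene to that DJ. Opening of the hairpin ends can leave short palindromic (P) bases, nucleases trim the ends, and terminal transferase adds bases without a template (N). The product is the third complementarity-determining region (CDR3), the most variable antigen-contact loop of the heavy chain. A D segment can be read in 3 frames, and in mouse antibodies the tyrosine-rich frame is the most used. Here a frame is numbered by the germline D base, 1, 2 or 3, at which its first codon starts.

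The joints of the tumour clones are shown because every value of trimming, addition and frame is read from them. Each runs 5′ to 3′ from the conserved cysteine codon to the conserved tryptophan codon. Capitals mark bases assigned to the germline D, and N, P, V and J bases are in lower case.
VQ-D1, IGHD2-4 to IGHJ2: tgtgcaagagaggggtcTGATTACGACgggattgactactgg
VQ-D2, IGHD1-1 to IGHJ1: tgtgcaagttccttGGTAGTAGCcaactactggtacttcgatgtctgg
VQ-D4, IGHD2-4 to IGHJ4: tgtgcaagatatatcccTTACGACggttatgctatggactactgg
VQ-D5, IGHD1-1 to IGHJ1: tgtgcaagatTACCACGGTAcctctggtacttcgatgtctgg
The clonotype of 4935 and that of 4938 are identical to the VQ-D2 joint base for base, and this rearrangement was counted once. That leaves 4 tumour rearrangements.

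The germline D segments, as rebuilt from the germline alignments in the files, follow with the bases that each joint kept in capitals.
IGHD1-1 in VQ-D2: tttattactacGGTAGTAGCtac
IGHD1-1 in VQ-D5: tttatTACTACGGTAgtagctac
IGHD2-4 in VQ-D1: tctactaTGATTACGAC
IGHD2-4 in VQ-D4: tctactatgaTTACGAC

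The 5 genes lie in the heavy chain locus on chromosome 12 of assembly GRCm38.p6 (mm10), where RefSeq annotates each as a D or J gene segment, the unit that becomes part of the variable exon. IGHD1-1 is at chr12:113482170-113482192 and is 23 bases long. IGHD2-4 is at chr12:113470694-113470710 and is 17 bases long. IGHJ1 is at chr12:113429781-113429833 (53 bases), IGHJ2 at chr12:113429468-113429515 (48 bases) and IGHJ4 at chr12:113428514-113428567 (54 bases). The unused IGHJ3 lies between IGHJ2 and IGHJ4. The lengths of all 5 genes equal those of the germline segments in the deposited alignments.

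The tumour joints combined distant D segments with J segments at different places in the J cluster. IGHD1-1 and IGHJ1 of VQ-D2 and VQ-D5 are separated by 52336 germline bases that hold 17 of the 20 annotated D segments, pseudogenes included, and 0 of the 4 J segments. IGHD2-4 and IGHJ2 of VQ-D1 are separated by 41178 bases with 13 D segments and 1 J segment. IGHD2-4 and IGHJ4, the genes that the clone table gives VQ-D4, are separated by 42126 bases with 13 D segments and 3 J segments.

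Among the D genes, IGHD2-4 took 100% of 4602 counts in VQ-D1 and 100% of 1277 counts in VQ-D4. IGHD1-1 took 100% of 2568 counts in VQ-D2, of 411 in 4935 and of 373 in 4938, and 99.9% of 2181 (interval 99.7 to 100%) in VQ-D5. Among the J genes, IGHJ2 took all counts of VQ-D1, IGHJ4 all of VQ-D4, and IGHJ1 all of VQ-D2, 4935 and 4938 and 99.8% of VQ-D5. The libraries thus sit at or near 0 or 100% for each gene, and VQ-D5 alone listed more than 1 D or J gene. IGHJ3 had 0 counts in all 6 libraries, which allows a share of up to 0.0652% in VQ-D1 and 0.804% in 4938, the deepest and the shallowest library.

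The joint of VQ-D1 stands out for its long first N stretch. V gene IGHV3-1 was joined without trimming, and 8 N bases follow it before the D. IGHD2-4 lost 7 bases at its 5′ end and 0 at its 3′ end, so 10 of 17 bases (58.8%) remain and the intact 3′ end is followed by 1 P base. After 3 N bases comes IGHJ2, trimmed by 6 bases, which gives 11 bases to the CDR3. The D is read in frame 3, and its complete codons give aspartate, tyrosine and aspartate. The CDR3 has 42 bases and 14 residues, 4 of them acidic and 1 basic, for a net charge of -3.

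VQ-D1 is also the only tumour library with a second clonotype above 1% of its counts. It has 1956 of 4602 counts (42.5%, interval 41.1 to 43.9%), is assigned to IGHV3-2, and its listed CDR3 is out of frame at 35 bases. These 35 bases are identical to the last 35 of the larger clonotype's CDR3, so both entries hold the same joint, listed from different starts. Its D bases, P base, second N stretch and J trimming are thus those of the larger clonotype. The V part is given as 4 bases instead of 9, and the first N stretch as 6 instead of 8.

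The VQ-D2 joint keeps the J gene whole. As the clone table assigns it, its V gene, IGHV4-1, was untrimmed and is followed by 2 P bases and 3 N bases. The last V base is given as the substitution A9T, counted from the first base of the cysteine codon. The aligned table counts this base among the added bases, so whether it is a V base was not settled. IGHD1-1 lost 11 bases at its 5′ end and 3 at its 3′ end, the most 5′ trimming of the 4 joints, and 9 of 23 bases (39.1%) remain. A second run of 3 N bases leads into untrimmed IGHJ1 with 22 bases up to the tryptophan codon. The D is read in frame 1 and gives valine and valine. At 48 bases and 16 residues it is the longest of the 4 tumour CDR3s, with 0 basic and 1 acidic residue and a charge of -1.

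As the clone table assigns it, the VQ-D4 joint has the fewest D bases, 7, although the aligned table assigns 10 D bases of another gene to it. IGHV7-3 was untrimmed with 1 P base and 3 N bases after it. IGHD2-4 lost 10 bases at its 5′ end and 0 at its 3′ end, which leaves 7 of 17 bases (41.2%) and 1 P base. With 2 N bases the joint reaches IGHJ4, trimmed by 5 bases and contributing 18. Frame 3 gives tyrosine and aspartate from the D, and the CDR3 holds 4 tyrosines among its 15 residues, against 2 in each of the other 3 clones. Its charge is -1, from 1 basic and 2 acidic residues.

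The VQ-D5 joint has the fewest added bases. IGHV3-8 was untrimmed with 1 P base, and 0 N bases separate it from the D. IGHD1-1 lost 5 bases at its 5′ end and 8 at its 3′ end, so 10 of 23 bases (43.5%) remain, with the substitution T9C at the ninth germline D base. The P base equals the germline D base next to those kept. A VQ-D5 clonotype of 2 counts with the same bases gives it to the D, with 4 bases trimmed and 11 kept. A run of 3 N bases precedes IGHJ1, which was trimmed by 3 bases and gives 19. The D is read in frame 2 as proline and arginine, where the germline codon at the substitution reads leucine. The CDR3 has 42 bases and 14 residues, with 2 basic and 1 acidic residue, and is the only 1 of the 4 with a positive charge, +1.

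**Figure D1:**
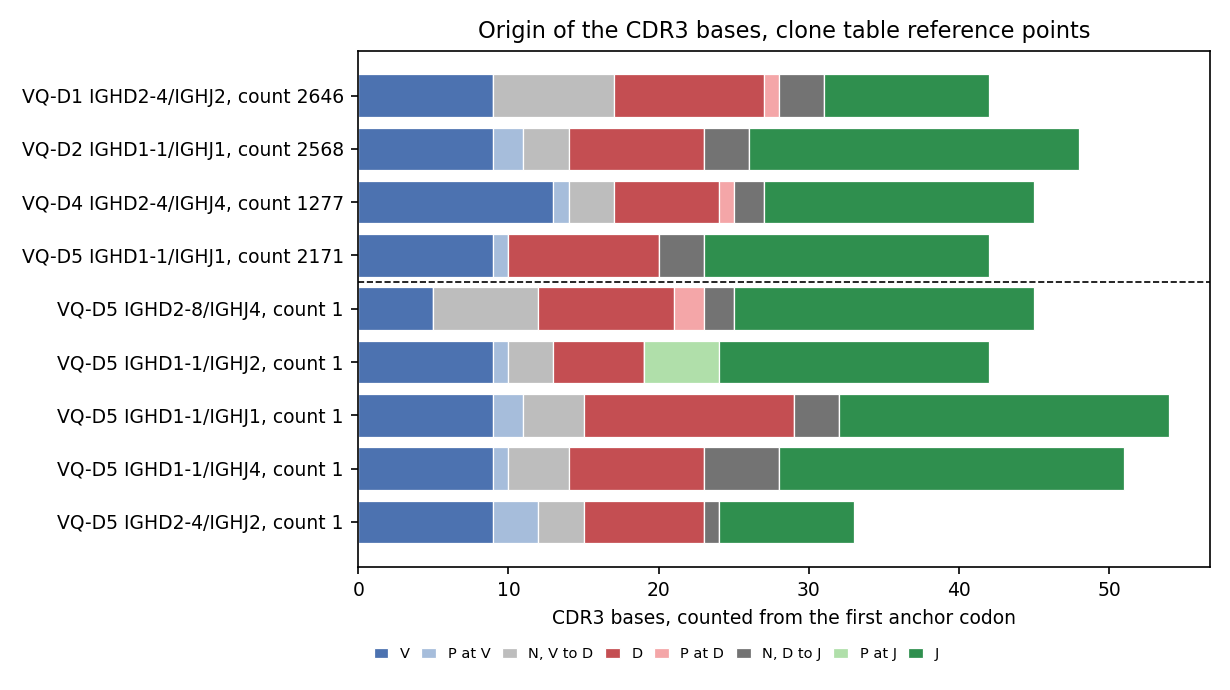
Number of CDR3 bases (horizontal axis, bases from the cysteine codon) that the clone tables assign to V, P, N, D and J, for the 4 tumour rearrangements above the dashed line and the 5 rearrangements with 1 count in VQ-D5 below it. VQ-D5 has 0 N bases between V and D, VQ-D1 has 8, and the D part spans 7 to 10 bases in the 4 tumour joints.

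Over the 4 tumour rearrangements the CDR3 measured 14.8 ± 0.957 residues (SD, n = 4), and added bases, N and P together, numbered 12 in VQ-D1 and 8 in VQ-D2, with 7 for VQ-D4 and 4 for VQ-D5. Their mean was 7.75 ± 3.30 (SD, n = 4), of which 1.5 ± 0.577 were P bases and the rest N bases. The V to D side varied most, at 3.5 ± 3.32 N bases, while the D to J side held 2.75 ± 0.5. Net charge was -1 ± 1.63 (SD, n = 4). In the VQ-D2 alignments the last V base is counted as added, but the clone tables leave all 4 V ends untrimmed. Of these ends, 3 carried P bases in the clone tables. Trimming fell on D and J: 8.25 ± 2.75 bases at the D 5′ end, 2.75 ± 3.77 at the D 3′ end and 3.5 ± 2.65 at the J end (SD, n = 4). The D 3′ end was intact in both IGHD2-4 joints and trimmed in both IGHD1-1 joints, with VQ-D4 assigned to IGHD2-4 as in the clone table. The means of added and trimmed bases rest on the same assignment. With the IGHD1-1 call of the aligned table, VQ-D4 has 0 bases between D and J. Its D then has 4 bases trimmed from the 5′ end and 9 from the 3′ end. Of the 25 N bases, 16 (64%) were G or C. These n are rearrangements of different tumours, and no test was run over them.

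The germline reading frames set what each D can encode. IGHD1-1 has 5 hydrophobic residues among 7 codons in frame 1, with valine, valine and alanine at its end, and VQ-D2 uses the pair of valine codons. Frame 2 of IGHD1-1 holds 2 stop codons, at bases 14 to 16 and 17 to 19. VQ-D5 uses this frame and keeps bases 6 to 15, so its D ends 1 base before the first stop codon is complete and the next base, an N base, is C. Frame 3 of IGHD1-1 has 4 tyrosines among 7 codons and was used by neither VQ-D2 nor VQ-D5. IGHD2-4 has 1 stop codon in frame 2, at bases 8 to 10, and 3 tyrosines and 2 acidic residues among 5 codons in frame 3. VQ-D1 uses this frame, as does VQ-D4 with the IGHD2-4 assignment of the clone table. The aligned table calls VQ-D4 IGHD1-1 in 31 of 33 sequences, also read in frame 3. Whether a tumour clone used frame 3 of IGHD1-1 is therefore not settled.

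**Figure D2:**
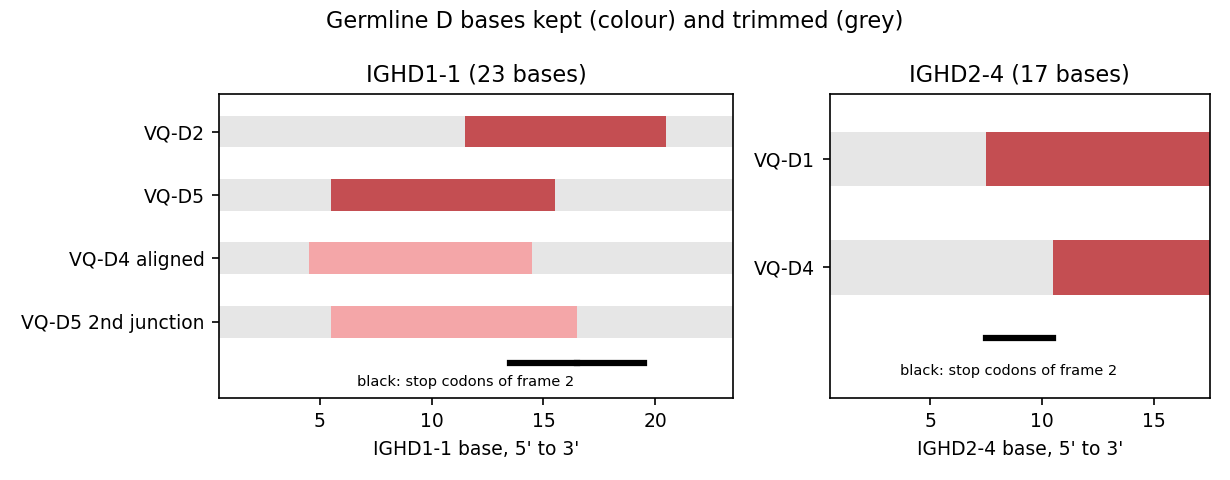
Germline D bases kept (coloured) and trimmed (grey) against base position in IGHD1-1 (left, 23 bases) and IGHD2-4 (right, 17 bases). Dark red bars are the clone tables, pale bars are the IGHD1-1 alignment of VQ-D4 and the second most frequent VQ-D5 junction in the aligned tables, and black marks the stop codons of frame 2. The VQ-D5 clone ends at base 15, inside the first stop codon of IGHD1-1.

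The D gene of VQ-D4 depends on the table. In the clone table IGHD2-4 has a score of 40, the same score as IGHD2-7, and IGHD1-1 follows with 36. In the aligned table the first D call was IGHD1-1 in 31 of 33 sequences with a junction and IGHD2-4 in 0 of 33, which allows up to 9.09%. The IGHD1-1 alignment covers 10 bases, 5 to 14 of the germline segment, with the substitution T9G, where positions are counted from the first germline D base.
IGHD1-1 in VQ-D4, aligned table: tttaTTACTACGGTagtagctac
With IGHD1-1 the joint has 4 bases trimmed from the D 5′ end instead of 10, 9 from the 3′ end instead of 0, 4 bases before the D, and 0 between D and J. The added bases then number 4 instead of 7. Counted as exact matches, the CDR3 holds at most 7 consecutive bases of IGHD2-4 and 5 of IGHD1-1. The reading frame is 3 in the clone table and in all 33 aligned sequences. In that frame the germline IGHD1-1 codon at the substitution reads tyrosine and the joint reads aspartate. The choice between the genes was not settled by these values.

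For the other lines the tables gave the same D gene. The longest exact stretch was 10 bases of IGHD2-4 against 5 of IGHD1-1 in VQ-D1, 9 of IGHD1-1 against 5 of IGHD2-4 in VQ-D2, and 6 of IGHD1-1 against 4 of IGHD2-4 in VQ-D5. The first D and J calls were those of the clone in 3761 of 3814 aligned junctions of VQ-D1 (98.6%) and 833 of 851 of VQ-D2 (97.9%, interval 96.7 to 98.7%). They were the clone's in 5995 of 6124 VQ-D5 junctions (97.9%), 11 of 12 in 4935 and 62 of 64 in 4938. In VQ-D1 the D call was tied between genes in 3801 of 3814 sequences (99.7%), mostly IGHD2-4 with an IGHD2-9 allele. The J call was the clone's in 844 of 851 VQ-D2 sequences, 6062 of 6124 VQ-D5 sequences and all sequences of VQ-D4 and 4938. In 4935 the single sequence with other calls had IGHD6-1 and IGHJ4, which is 8.33% of its 12 junctions. IGHJ3 was the first J call in 3 VQ-D1 sequences, 4 VQ-D2 sequences and 7 VQ-D5 sequences, at most 0.470% of a library's junctions.

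**Figure D3:**
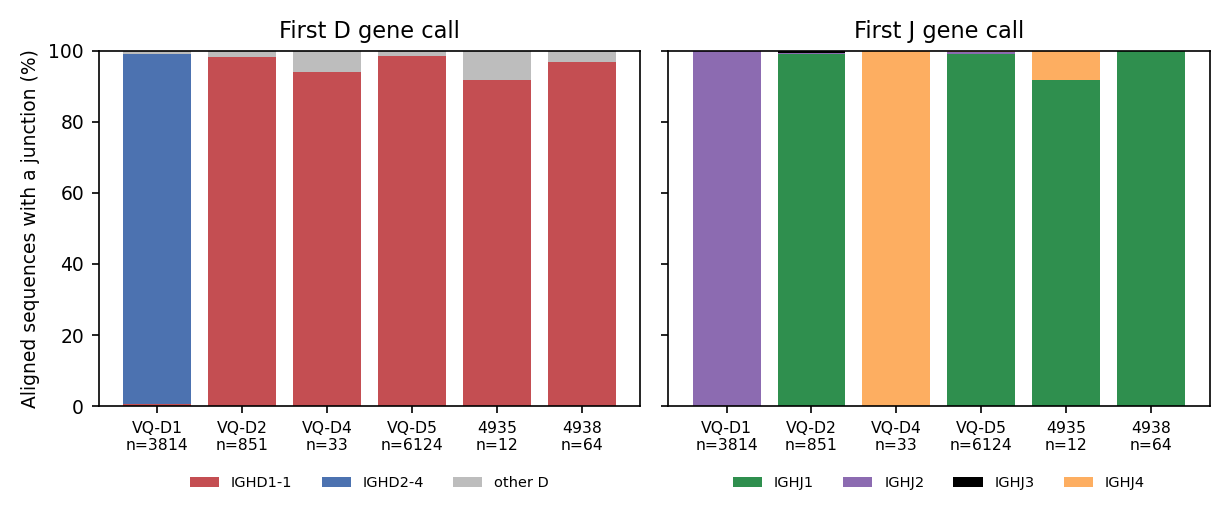
Share of aligned sequences with a junction (percent) by first D call (left) and first J call (right) in each heavy chain library, with the number of sequences under each bar. VQ-D4 is called IGHD1-1 in 31 of 33 sequences although its clone table lists IGHD2-4 first, while its J call is IGHJ4 in all 33.

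The aligned sequences repeat the joints closely outside VQ-D5. The exact CDR3 of the clone made up 88.5% of VQ-D1 junctions, 89.5% of those of VQ-D2, 87.9% for VQ-D4, 83.3% for 4935 and 87.5% for 4938. Bases between V and D numbered 8 in 82.5% of VQ-D1 sequences and 6 in 95.5% of VQ-D2 sequences. In VQ-D1 sequences with the clone's exact CDR3 they also numbered 8 in 82.0%, with a range of 5 to 9. The alignment thus places the V end differently on identical bases. Bases between D and J numbered 4 in 97.0% of VQ-D1 and 3 in 95.7% of VQ-D2. The aligned tables count P and N bases together. In VQ-D2 they also place among the added bases the base that the clone table gives as a substituted last V base. With it, 9 bases are added instead of 8. Sequences that share a clone are copies of 1 joining event.

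In VQ-D5 the exact CDR3 of the clone made up 36.3% of 6124 junctions (interval 35.1 to 37.5%), the lowest share of the 6 libraries. A junction of 41 bases followed with 1563 sequences (25.5%), and all 41-base junctions together numbered 2894, of which 234 were called productive. The clone and this second junction are printed one above the other because they share their first 20 bases, D substitution included, and part at the D to J joint.
VQ-D5 clone: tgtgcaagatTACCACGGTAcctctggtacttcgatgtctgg
VQ-D5 second junction: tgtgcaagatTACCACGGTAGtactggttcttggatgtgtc
The second junction keeps IGHD1-1 bases 6 to 16, 1 more than the clone. Its J end is trimmed by 1 base, it has 0 added bases between D and J, and it reaches a stop codon at its codon 7. The J alignment stops at J base 18, and some of the aligned bases differ from IGHJ1. The junction does not end in the tryptophan codon, so its length and the clone's are not measured to the same end. None of the 1563 sequences was called productive (0 sequences). No clonotype of the clone table holds this junction.

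Among sequences of the clone's length, at most 0.521% of D bases differed from the clone in any of the 6 libraries. In VQ-D1, 0.250% of D bases differed from the clone (interval 0.203 to 0.306%) against 0.369% of V, 0.745% of D to J added and 0.542% of J bases. VQ-D2 had 0.136% in D, 0.190% in V and 0.228% in J. VQ-D5 had 0.152% in D and 0.131% in V but 6.95% in the bases between D and J and 1.76% in J. The 5 most frequent VQ-D5 changes were C33G, A29T, C21G, C22T and T23A, counted from the cysteine codon, at 6.17 to 8.54% of 2705 sequences. All 5 give the base that the second junction has at that position. In 4935, 0 of 480 bases in 10 sequences differed, which allows up to 0.625%, and in 4938 the share was 0.456%. The limit and intervals treat every base as independent, so linked changes within a sequence can make them too narrow. Sequences with more than 5 differing bases were left out, 300 of them in VQ-D5 and 12 or fewer elsewhere, so these are shares among near copies.

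**Figure D4:**
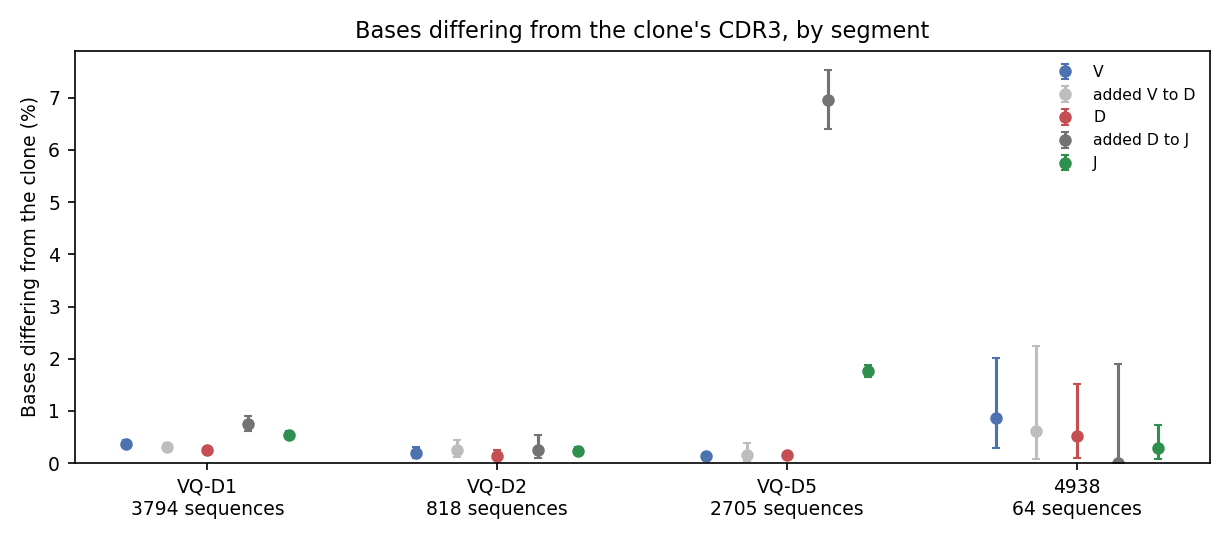
Percent of bases that differ from the clone's CDR3 in aligned junctions of the clone's length, by segment, for the 4 libraries with at least 64 such sequences. Points are shares over all compared bases and bars are exact 95% intervals, which cover counting error only and treat every base as independent. VQ-D5 stands at 6.95% between D and J and 1.76% in J, while its D bases are at 0.152%.

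At position 9 of the VQ-D2 joint the clone table gives the last V base as substituted. T9A, which gives the germline V base there, was found in 3 of 818 VQ-D2 sequences (0.367%) and 3 of 64 4938 sequences (4.69%). In 4935 it was found in 0 of 10. The 4938 sequences share 1 library, so this difference has no replicate.

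IGHJ1 appears in 2 allelic forms. The reference alleles differ at 1 base, A26G in positions of the J segment, shown in capitals, which lies beyond the CDR3 in framework 4 and changes a threonine codon to an alanine codon.
IGHJ1*03: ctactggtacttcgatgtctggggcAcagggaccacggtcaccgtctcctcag
IGHJ1*01: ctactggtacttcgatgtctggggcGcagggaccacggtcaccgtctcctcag
J bases were read from junctions of the clone's length, which in VQ-D5 gave 3004 of 6124 sequences and leave out its second junction. VQ-D2 had A at this base in 815 of 815 sequences, 4935 in 11 of 11 and 4938 in 64 of 64. VQ-D5 had G in 2476 of 2485 (99.6%). The lines that share the VQ-D2 joint thus share the allele, and VQ-D5 carries the other. Outside the allele difference, no J position covered by at least 50% of the sequences held a substitution in most of them in any of the 6 lines, over 42 to 53 positions each. In VQ-D5 the germline base fell to 82.7% of sequences at J position 13 and 84.1% at position 9. Among junctions of the clone's length, most sequences of all 4 clones thus held the germline J base at these positions. Within the CDR3, the clone tables give a single D substitution for VQ-D5 and a single V substitution for VQ-D2.

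VQ-D5 is the only library in which other joints of these genes were listed. Of its 10 clonotypes, 4 contain the clone's D bases and hold 2175 of 2181 counts, 1 is the VQ-D2 CDR3 with 1 count, and 5 are other rearrangements with 1 count each. Clonotypes of 1 count have no depth behind them. IGHV1-18 with IGHD1-1 and IGHJ1 has 18 residues, 14 D bases and a charge of 0. IGHV1-64 with IGHD1-1 and IGHJ4 has 17 residues and a charge of 0. In the germline, 53602 bases lie between IGHD1-1 and IGHJ4. IGHV1-54 with IGHD2-4 and IGHJ2 is the shortest at 11 residues and has a charge of -2. IGHV8-12 with IGHD2-8 and IGHJ4 has 15 residues and the only trimmed V end, by 8 bases. IGHV1-26 with IGHJ2 has 14 residues and 6 D bases tied between IGHD1-1, IGHD2-5 and IGHD2-6, but an exact run of 17 IGHD1-1 bases runs through its joint, 5 of which the clone table gives as P bases of IGHJ2.

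The lengths of these 5 joints overlapped those of the tumour joints. All 5 read the D in frame 3, the tyrosine-rich frame of IGHD1-1 and IGHD2-4, against 2 of 4 tumour joints, with 1 tumour joint in frame 1 and 1 in frame 2. Their CDR3s measured 15 ± 2.74 residues (SD, n = 5) against 14.8 ± 0.957 (SD, n = 4). They held 9.2 ± 1.48 added bases, or 9.25 ± 1.71 (SD, n = 4) without the IGHV1-26 joint, against 7.75 ± 3.30, and their charge was -0.8 ± 0.837 against -1 ± 1.63. Each of these differences is smaller than the larger SD. Of their 32 N bases, 24 (75%) were G or C, and 21 were G. The joints come from 1 library and were not tested against the tumour joints.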

How the data were processed

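Full-length heavy chain libraries were made from total RNA by a method that uses molecular identifiers, per the labels' protocols. The submitters' processing notes name mm10. Deposited clone tables give a whole-number count and a fraction for each clonotype, its best V, D and J hits, and reference points of each segment end in the form that MiXCR exports, per the file headers. Not given in the sources used here are tool versions, germline sets and whether counts are of reads or molecules. The deposited aligned tables have IgBLAST columns with gene calls, alignment positions and added bases, and identity in percent, per the file headers.

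Trimmed bases, P bases and N bases were read from the reference points. All 17 ends with P bases were palindromic to the germline end, including 5 bases at an IGHJ2 end that also lie in a longer IGHD1-1 match. These ends were counted over all 16 clonotype entries, so joints listed more than once are repeated. P bases are palindromic by definition, so this count is no support for the assignments. Charge was lysine plus arginine minus aspartate plus glutamate, anchor residues included. Genes other than the 5 members were named at 1% of clone counts or 5% of aligned junctions, and smaller clonotypes where their D or J differed from the largest. Junctions of the clone's length with at most 5 differing bases were compared base by base. Gene positions came from the RefSeq table of assembly GRCm38.p6, and germline D and J bases from the files. On simulated data, 12 of 12 differing-base rates and 2000 of 2000 reading frames were recovered. No test compared groups, since each line has 1 library. Dixon's gap over range was used only to pick lines that lie apart from the other primary lines. The members, lists and settings were chosen with earlier results of these data known. Software was matplotlib 3.10.9, scipy 1.17.1, numpy 2.4.6 and pandas 2.3.3 under Python 3.11.15.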

Additional observations from a re-analysis of the deposited data

Results flagged for a closer look

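In 17 measures over the 4 primary lines, the lowest or highest line was set against the others by Dixon's gap over range, and 5 exceeded the 95% critical value. The critical value lets about 1 of 20 groups pass by chance, a rate that does not hold for tied whole numbers or for measures that share sequences. VQ-D4 lay apart in 3 measures: it had 2 N bases between D and J where the others had 3 each, 4 tyrosines in its CDR3 where the others had 2 each, and 0% of aligned junctions with the first D and J calls of its clone. VQ-D5 lay apart in the share of aligned junctions with the exact CDR3 of the clone, 36.3%, and in the share with the clone's length, 49.1%, a measure that includes the former. In the N base and tyrosine counts the other 3 lines were tied, so any different value would have passed.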

How the results depend on the processing

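Over 57 results and 113 alternative values, 96 stayed the same, 17 moved and 0 reversed. Same meant within the counting interval or spread, or exactly equal where a result had neither. A reversal needed a change of sign, which only net charge could show. Leaving out the anchor residues could not change charge, because cysteine and tryptophan are not counted in it. Counting histidine as positive could not change it either, because no tumour CDR3 holds a histidine. The stability of charge and the 0 reversals are therefore no support. The member gene shares describe how the genes were chosen, so their stability is no support. Counting each VQ-D5 clonotype once gave IGHD1-1 80% and IGHJ1 60%. Taking positions from all aligned junctions, or from those with the clone's exact CDR3 (added after seeing the data), gave 9 added bases in VQ-D2, and in VQ-D4 4 and 9 bases trimmed from the D 5′ and 3′ ends with 4 added. In VQ-D5 all aligned junctions gave 7 bases trimmed from D 3′, 1 from J and 0 added, and the exact CDR3 gave 3 added. Productive sequences alone had the clone's D and J in 99.4% of junctions for VQ-D1, 99.6% for VQ-D2 and 100% for 4935. Leaving out each line in turn moved the mean added bases between 6.33 and 9 and the mean CDR3 length between 14.3 and 15 residues. Weighting aligned sequences by reads was not run, because no column used here gives their number. No paired analysis was possible because the results come from no test and each line has 1 heavy chain library. Depth limits 4935 and VQ-D4 most, with 12 and 33 aligned junctions.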

Other observations

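Most aligned sequences had no junction, and in VQ-D2, VQ-D4, 4935 and 4938 the most frequent J call among them was not the clone's. In VQ-D2, 26364 of 27215 sequences had none, and IGHJ2 was the first J call in 11590 of these (44.0%), although the VQ-D2 clone uses IGHJ1. These IGHJ2 alignments had a median of 7 aligned bases, and 11582 (99.9%) had 10 or fewer. In 4938, which has the same joint, IGHJ3 was the first J call in 115 of 762 such sequences (15.1%), again with a median of 7 aligned bases. In 4935, with that joint too, it was IGHJ3 in 14 of 282. In VQ-D4, whose clone uses IGHJ4, it was IGHJ2 in 18 of 309. VQ-D1 had IGHJ2, its clone's J, in 701 of 5381 (13.0%), with a median of 29 aligned bases. J gene shares taken over all aligned sequences therefore differ from those over sequences with a junction.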
